A study of Homo sapiens with 9 samples.

Results

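The RAS-ERK cascade carries growth factor signals from receptor tyrosine kinases to the ERK kinases, and active ERK drives transcription of its own brakes. The data below describe 10 transcripts that are widely read as output of this cascade in A498 cells, an established line from a human kidney tumour of the clear cell type (ccRCC). They are the dual-specificity phosphatase genes DUSP4, DUSP5 and DUSP6, the Sprouty family genes SPRY2, SPRY4 and SPRED1, the PEA3 factor genes ETV4 and ETV5, and PHLDA1 and FOSL1. The members were found by gene name among 27671 names in the count table. All 10 were present as a single row with whole-number counts, and all 10 passed the filter on low counts.

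The libraries came from A498 cells infected with PLKO.1 lentivirus and selected with puromycin. The group shControl carried a control short hairpin RNA (shRNA) and had the genotype label WT, shBMAL1 carried an shRNA against BMAL1, and shARNT carried an shRNA against ARNT. Each group had 3 libraries labelled as biological replicates, 9 in all. BMAL1 pairs with CLOCK to drive circadian transcription, and ARNT pairs with the hypoxia-inducible factors. The study used the depletions to ask what each protein contributes to expression driven by HIF2α. The labels give 1 shRNA for each depletion, so effects of a hairpin outside its target cannot be told apart from the depletion. The labels do not say whether replicates came from separate infections, so p-values measure the spread between these libraries.

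Library totals were even, from 35269870 to 36099096 counts. ARNT had a log2 fold change of -2.41 in shARNT, and BMAL1 (listed as ARNTL) had -1.70 in shBMAL1. ARNT was also lower in shBMAL1 (log2 fold change -0.65), whereas ARNTL was higher in shARNT (0.55). The 5 kidney epithelial markers PAX8, PAX2, CDH6, KRT8 and KRT18 were all detected, and their summed level was 1900 to 1930 CPM (counts relative to the library size after TMM scaling, the trimmed mean of M values) in shControl, 1660 to 1750 CPM in shBMAL1, and 1290 to 1390 CPM in shARNT. KRT8 and KRT18 carried most of this sum. Within it, PAX8 was 2.79-fold higher and CDH6 was 6.78-fold lower in shARNT. KRT8 (log2 fold change -0.75) and PAX2 (-0.55) were also lower there, and KRT18 was not called. The 4 ccRCC markers CA9, NDUFA4L2, NNMT and VIM summed to 6130 to 6180, 4310 to 4820 and 855 to 913 CPM in the same order of groups, nearly all of it VIM. NNMT was 1.82-fold higher in shBMAL1 and lower in shARNT, CA9 and VIM were lower in both, and NDUFA4L2 had at most 16 counts and passed the filter through shControl alone. The leukocyte marker PTPRC had at most 12 counts in any library, and the endothelial markers PECAM1 and CDH5 had at most 4. The fibroblast list (COL1A1, PDGFRB and DCN) was higher in shControl, with a sum of 231 to 245 CPM, than in shBMAL1 (34.2 to 37.3) or shARNT (40.7 to 50.7). Of its 3 genes 2 were tested and both were lower in each depletion, and the part of these shifts in the results below was not tested.

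DUSP proteins remove phosphates from MAP kinases. DUSP6 acts on ERK in the cytoplasm, whereas DUSP4 and DUSP5 act in the nucleus. Sprouty and SPRED proteins restrain signalling upstream, between the receptor and RAF. ETV4 and ETV5 are ETS-family transcription factors whose genes are repressed by Capicua (CIC) until ERK inactivates it. FOSL1 encodes FRA1, a subunit of the factor AP-1, and PHLDA1 encodes a pleckstrin homology-like protein. ERK phosphorylation and protein levels were not analysed here.

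After BMAL1 depletion 7 of the 10 transcripts rose and 1 fell. DUSP4, DUSP5, DUSP6, SPRED1, ETV4, PHLDA1 and FOSL1 were higher in shBMAL1 than in shControl, SPRY4 was lower, and SPRY2 and ETV5 did not pass the test. DUSP6, DUSP4, PHLDA1 and FOSL1 rose at least 2-fold. After ARNT depletion the same set split evenly. DUSP5, DUSP6, ETV5 and FOSL1 rose, SPRY2, SPRY4, SPRED1 and ETV4 fell, and DUSP4 and PHLDA1 did not pass the test. Compared directly, all 10 differed between the depletions.

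These counts stand against a broad response of the whole transcriptome. In shBMAL1 against shControl 63.4% of the 15551 genes tested were called (edgeR quasi-likelihood test, Benjamini-Hochberg adjusted p under 0.1), 31.9% higher and 31.5% lower. Calls with a change of at least 2-fold were rarer, 4.73% higher and 5.51% lower, beside 4 and 0 of the 10 genes. In shARNT against shControl 81.8% were called, 40.5% higher and 41.3% lower, so 8 calls among 10 genes were near the background share. At least 2-fold changes made up 12.4% (higher) and 19.2% (lower) of all genes, and 3 of the 10 genes in each direction. The direct contrast of shARNT with shBMAL1 called 81.2% of genes, 40.1% higher and 41.1% lower, and 12.0% and 18.8% at 2-fold or more, whereas 1 of the 10 genes was at least 2-fold higher and 5 were at least 2-fold lower. The 10 genes had a median log2 fold change of 0.91 in shBMAL1, -0.02 in shARNT and -0.96 in the direct contrast, beside 0.0 or -0.01 over all genes. The 10 genes were chosen with earlier results of these data known, so these comparisons with all genes are no test of the set. Both contrasts with shControl used the same control libraries. In this bulk RNA, fewer cells that express a gene and less RNA per cell cannot be told apart.

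Levels did not overlap between groups for 8 of the 10 genes in shBMAL1 against shControl, where 62.2% of all genes behaved so. The count was again 8 in shARNT against shControl, beside 79.8% of all genes, and 10 in the direct contrast, beside 79.6%. With library size alone in place of TMM scaling, the median over all genes moved to 0.23 in shARNT and to 0.05 in shBMAL1, and the calls in shARNT moved from 6304 higher and 6419 lower to 7828 higher and 5111 lower. No call of the 10 genes against shControl changed direction under that scaling.

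**Figure D1:**
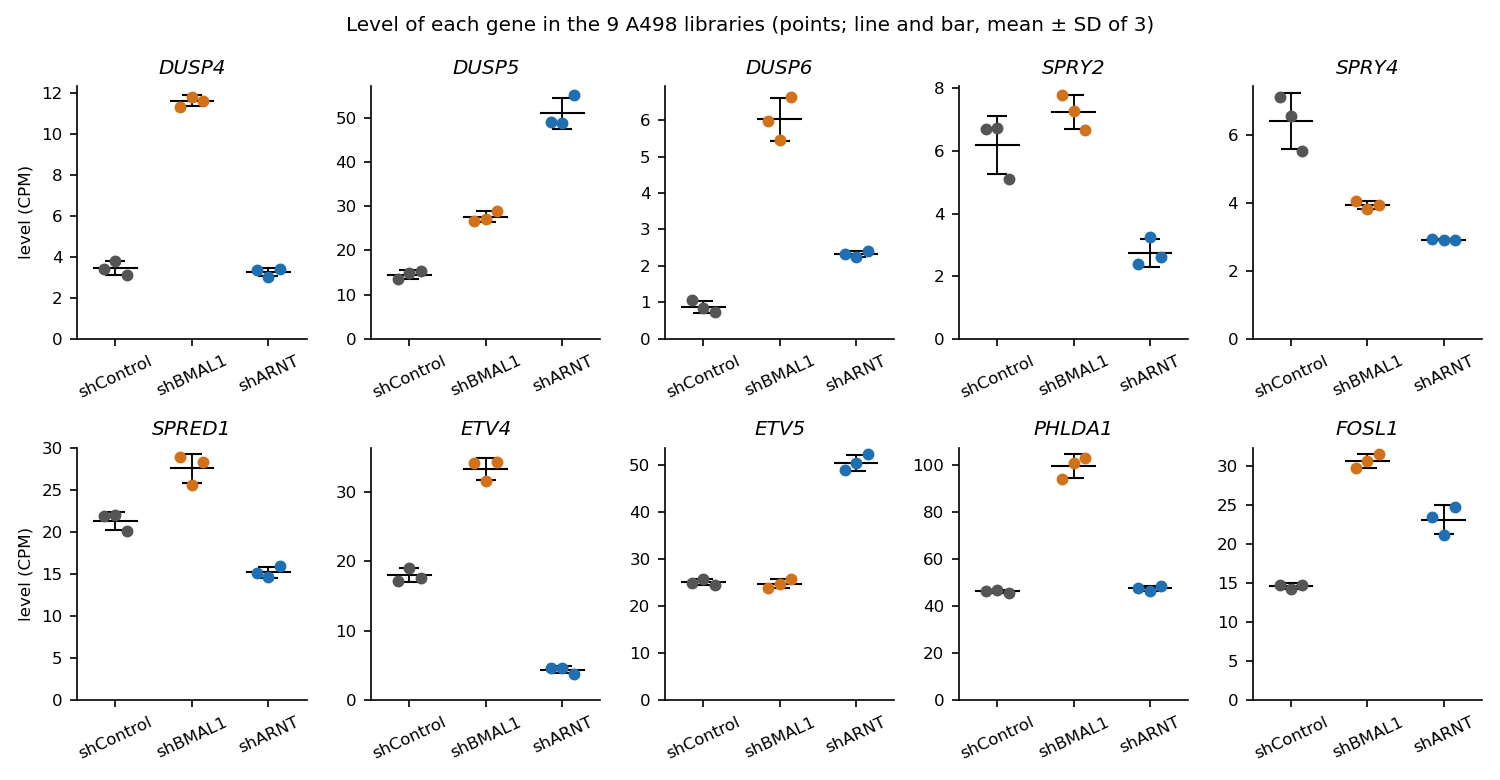
Level in CPM (vertical axes from 0, a separate scale for each gene) of the 10 MAPK output genes in each library of shControl, shBMAL1 and shARNT, with points for libraries and a line and bar for mean ± SD of 3. DUSP6 stood highest in shBMAL1, DUSP5 and ETV5 in shARNT, and ETV4 was high in shBMAL1 and low in shARNT.

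The promoters of 2 genes that moved apart in shARNT are shown first. DUSP6 rose and SPRY2 fell there, and both windows hold the 250 bases before the outermost annotated start, read along the gene's strand from RefSeq on GRCh38.p14. The DUSP6 window is chr12:89352502-89352751 and the SPRY2 window is chr13:80341127-80341376, both on the minus strand. Capitals would mark a match to a motif as searched below, and neither sequence has any.
DUSP6: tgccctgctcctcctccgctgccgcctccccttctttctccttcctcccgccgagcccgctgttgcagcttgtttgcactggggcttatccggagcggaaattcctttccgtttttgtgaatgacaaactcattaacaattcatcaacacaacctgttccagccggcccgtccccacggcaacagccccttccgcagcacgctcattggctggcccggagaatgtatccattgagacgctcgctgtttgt
SPRY2: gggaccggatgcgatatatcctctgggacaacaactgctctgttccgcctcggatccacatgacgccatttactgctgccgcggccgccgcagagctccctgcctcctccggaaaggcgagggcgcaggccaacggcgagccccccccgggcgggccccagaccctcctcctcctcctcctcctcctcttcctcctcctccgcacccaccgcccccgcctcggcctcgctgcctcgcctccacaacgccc

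GC content was 57.2% in the DUSP6 window and 70.4% in the SPRY2 window. Promoter windows were searched for 5 of the 10 genes, DUSP6, SPRY2, SPRY4, SPRED1 and PHLDA1, with 7 windows in total. Member windows on chromosome 8, where DUSP4 lies, were not used. Each window was searched on both strands for the E-box CACGTG bound by BMAL1 with CLOCK, the hypoxia response core ACGTG (which lies inside this E-box), the AP-1 motif TGANTCA, the ETS motif CCGGAAG, and the CIC octamers TGAATGAA and TGAATGGA. None of the 7 windows held any of these letters. The study writes the hypoxia response element as N(G/A)CGTG, and its GCGTG form was not searched, here or in the shares below. The printed DUSP6 window holds cacgc, which is GCGTG read on the other strand. Shares were taken over 34788 distinct windows of the same length before annotated starts, the 7 windows included. Of the 34788, 6.31% held the E-box, 18.5% the hypoxia core, 6.59% the AP-1 motif, 8.5% the ETS motif and 2.17% a CIC octamer. The absence of a match describes these letters in the 7 windows alone.

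Among the phosphatases, DUSP6 had the largest rise of the 10 genes after BMAL1 depletion. The gene lies on chromosome 12 (89741012 to 89746278, GRCh37, minus strand). It had 35, 28 and 24 counts in the shControl libraries, 204, 188 and 226 in shBMAL1, and 92, 89 and 96 in shARNT. All shBMAL1 libraries thus lay above all shARNT libraries, which lay above all shControl libraries. The level was 0.876 ± 0.164 CPM (SD, n = 3) in shControl, 6.02 ± 0.596 in shBMAL1 and 2.33 ± 0.0848 in shARNT. In shBMAL1 the gene rose by 2.78 on the log2 scale (SE 0.182, adjusted p = 8.22e-11), a 6.85-fold rise that ranked 55 from the top of the 15551 genes. In shARNT it was 1.41 (SE 0.196, adjusted p = 1.6e-06), a 2.65-fold rise. DUSP6 was lower in shARNT than in shBMAL1 by a log2 difference of -1.37 (SE 0.155, adjusted p = 9.38e-08). An antisense non-coding RNA (ENSG00000274021) covers 28.6% of its exon bases and was not analysed here, and the use of strand in counting is not given in the sources used here.

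DUSP4, a nuclear phosphatase, rose in shBMAL1 and did not pass the test in shARNT. It lies on chromosome 8 (29190581 to 29208201, GRCh37). Its level was 3.39, 3.8 and 3.12 CPM in the shControl libraries, 11.3, 11.8 and 11.6 CPM in shBMAL1, and 3.33, 3.03 and 3.4 CPM in shARNT. The shBMAL1 libraries stood apart, and those of the other groups overlapped. Against shControl, shBMAL1 differed by 1.75 on the log2 scale (SE 0.118, adjusted p = 1.21e-10) and shARNT by -0.08 (95% interval -0.35 to 0.19, adjusted p = 0.59). With library size alone the latter value was 0.16 and again not called. The direct contrast gave -1.83 (SE 0.116, adjusted p = 1.04e-11).

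DUSP5 encodes an ERK-specific nuclear phosphatase and had the highest level per kilobase of these 3 phosphatase genes in every group. On chromosome 10 (112257665 to 112271291, GRCh37), it had 13.5, 14.8 and 15.3 CPM in shControl, 26.6, 27.1 and 29.0 CPM in shBMAL1, and 49.2, 49.0 and 55.2 CPM in shARNT. Here shARNT was the highest group and shControl the lowest, with no overlap. DUSP5 rose 1.9-fold in shBMAL1 (log2 fold change 0.92, SE 0.0717, adjusted p = 1.03e-09) and 3.52-fold in shARNT (1.82, SE 0.0694, adjusted p = 2.63e-15). Its direct contrast was 0.89 (SE 0.065, adjusted p = 1.04e-10), opposite in sign to those of DUSP4 and DUSP6. The 3 phosphatase genes therefore ranked the depletions differently. Within a library, the ratio of DUSP4 to DUSP5 counts was 0.237 ± 0.0291 in shControl, 0.42 ± 0.0187 in shBMAL1 and 0.0638 ± 0.00348 in shARNT, without overlap. Such a ratio does not depend on the scaling between libraries.

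Among the Sprouty genes, SPRY4 fell in both depletions, whereas DUSP6 rose in both. SPRY4 lies on chromosome 5 (141689992 to 141706020, GRCh37, minus strand). Its counts were 237, 216 and 182 in shControl, 138, 131 and 134 in shBMAL1, and 116, 115 and 115 in shARNT. Every library of either depletion lay below every shControl library. The shControl level of 6.4 ± 0.817 CPM fell to 3.93 ± 0.117 after BMAL1 depletion (log2 fold change -0.70, SE 0.133, adjusted p = 0.000135) and to 2.91 ± 0.0159 after ARNT depletion (-1.13, SE 0.135, adjusted p = 1.91e-07). The difference between the depletions was -0.43 (SE 0.141, adjusted p = 0.00894), and it was not called with library size alone (-0.24, adjusted p = 0.126). The ratio of SPRY4 to DUSP6 counts was 6.77, 7.71 and 7.58 in the shControl libraries, 0.676, 0.697 and 0.593 in shBMAL1, and 1.26, 1.29 and 1.2 in shARNT. SPRY4 had the more counts of the pair in shControl and in shARNT, and DUSP6 had the more in shBMAL1. Counts are not corrected for gene length. Per kilobase of exon, DUSP6 lay above SPRY4 in shARNT as well (0.604 against 0.444 CPM per kilobase).

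SPRY2 fell in shARNT and did not pass the test in shBMAL1. The gene is on chromosome 13 (80910111 to 80915261, GRCh37, minus strand). It had 223, 222 and 169 counts in shControl, 266, 251 and 227 in shBMAL1, and 95, 128 and 103 in shARNT. The shARNT libraries were lowest throughout, and shControl and shBMAL1 came close, since the lowest shBMAL1 library (6.67 CPM) lay below 2 of the shControl libraries (6.7 and 6.74 CPM). The log2 fold change was -1.17 in shARNT (SE 0.149, adjusted p = 4.78e-07) and 0.23 in shBMAL1 (95% interval -0.06 to 0.52, adjusted p = 0.166). The latter value was called with library size alone (0.28, adjusted p = 0.0969). Directly compared, SPRY2 was lower in shARNT by a log2 difference of -1.40 (SE 0.147, adjusted p = 2.95e-08).

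SPRED1, which brings the RAS inactivator neurofibromin to the membrane, moved in opposite directions. It lies on chromosome 15 (38545037 to 38649450, GRCh37). Counts were 730, 724 and 664 in shControl, 988, 883 and 961 in shBMAL1, and 597, 577 and 634 in shARNT. In CPM the groups did not overlap, with 21.3 ± 1.07 in shControl, 27.6 ± 1.73 in shBMAL1 and 15.2 ± 0.704 in shARNT. The changes were modest, with log2 fold changes of 0.37 (SE 0.0711, adjusted p = 0.000159) and -0.49 (SE 0.0733, adjusted p = 4.59e-06), and neither passed a test against a minimum fold change of 1.5 (adjusted p = 1.0 in each). The difference between the depletions was -0.86 (SE 0.0721, adjusted p = 9.59e-10).

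ETV4 had the largest difference between the depletions of the 10 genes. It lies on chromosome 17 (41605212 to 41656988, GRCh37, minus strand). Its counts were 574, 628 and 583 in shControl, 1167, 1087 and 1167 in shBMAL1, and 186, 182 and 152 in shARNT. The shBMAL1 libraries lay above and the shARNT libraries below all shControl libraries. ETV4 rose 1.85-fold in shBMAL1 (log2 fold change 0.89, SE 0.0765, adjusted p = 4.88e-09) and fell to 24.3% of the control level in shARNT (-2.04, SE 0.091, adjusted p = 3.3e-14). It was 7.61-fold lower in shARNT than in shBMAL1 (-2.93, SE 0.0882, adjusted p = 5.46e-17). Its exons share 68 bases with DHX8 on the other strand, a gene with a mean of 4130 counts.

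ETV5 did the reverse in shARNT. This second PEA3 gene is on chromosome 3 (185764103 to 185828107, GRCh37, minus strand). Its level was 24.9, 25.8 and 24.6 CPM in shControl, 23.9, 24.7 and 25.8 in shBMAL1, and 49.0, 50.5 and 52.4 in shARNT. The shARNT libraries were the high ones, and the other groups overlapped. ETV5 rose 2.01-fold in shARNT (log2 fold change 1.01, SE 0.057, adjusted p = 1.52e-12), with -0.02 in shBMAL1 (95% interval -0.14 to 0.11, adjusted p = 0.8), which was 0.03 with library size alone and not called. The direct contrast was 1.03 (SE 0.0569, adjusted p = 1.1e-12). ETV5 shares 2.84% of its exon bases with DGKG on the same strand, which had a mean of 130 counts.

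The balance of the PEA3 genes accordingly differed among all groups. The ratio of ETV5 to ETV4 counts was 1.45, 1.36 and 1.4 in the shControl libraries, 0.7, 0.782 and 0.753 in shBMAL1, and 10.4, 11.0 and 13.7 in shARNT. ETV4 was thus the more counted gene of the pair in shBMAL1 and ETV5 in the other groups. Counts are not corrected for gene length. Per kilobase of exon, ETV4 lay above ETV5 in shControl as well (5.12 against 4.35 CPM per kilobase). The sum of their CPM moved less and was 43.1 ± 1.56 (shControl), 58.1 ± 1.97 (shBMAL1) and 55.0 ± 1.29 (shARNT).

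**Figure D2:**
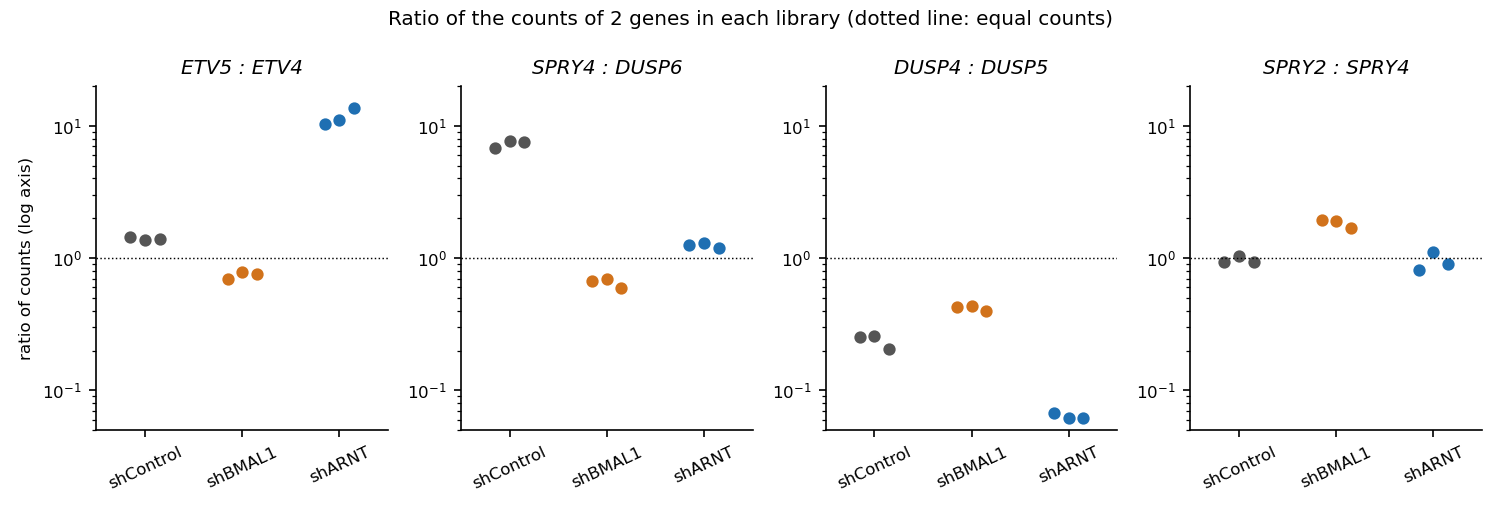
Ratio of the counts of 2 genes within each library (vertical log axis, points for the 9 libraries, dotted line at equal counts) for ETV5 to ETV4, SPRY4 to DUSP6, DUSP4 to DUSP5 and SPRY2 to SPRY4. Counts were not corrected for gene length, so equal counts are not equal levels per kilobase. The ETV5 to ETV4 ratio averaged 1.4 in shControl, 0.745 in shBMAL1 and 11.7 in shARNT, and the SPRY4 to DUSP6 ratio averaged 7.36, 0.655 and 1.25.

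FOSL1 rose in both depletions, more in shBMAL1. It lies on chromosome 11 (65659520 to 65668044, GRCh37, minus strand). Counts were 491, 466 and 490 in shControl, 1015, 1055 and 1071 in shBMAL1, and 930, 834 and 980 in shARNT. In CPM the groups were separate, with 14.6 ± 0.37, 30.6 ± 0.902 and 23.1 ± 1.84. The rises were 2.1-fold (log2 fold change 1.07, SE 0.0716, adjusted p = 1.14e-10) and 1.58-fold (0.66, SE 0.0721, adjusted p = 5e-08), and the direct contrast was -0.41 (SE 0.0679, adjusted p = 1.77e-05).

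PHLDA1, like DUSP4, passed the test against shControl in shBMAL1 and not in shARNT. The gene lies on chromosome 12 (76419227 to 76425556, GRCh37, minus strand). It had 46.4, 46.9 and 45.4 CPM in shControl, 93.9, 101 and 103 CPM in shBMAL1, and 47.8, 46.4 and 48.4 CPM in shARNT. The shBMAL1 libraries were high and those of shControl and shARNT overlapped. Its log2 fold change was 1.10 (SE 0.0496, adjusted p = 2.66e-13) in shBMAL1, a 2.15-fold rise. In shARNT it was 0.04 (95% interval -0.07 to 0.14, adjusted p = 0.49) and was called with library size alone (0.28, adjusted p = 4.98e-05). The difference between the depletions was -1.07 (SE 0.0491, adjusted p = 5.45e-14). An antisense non-coding RNA (PHLDA1-AS1) covers 9.35% of the PHLDA1 exon bases and was not analysed here.

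**Figure D3:**
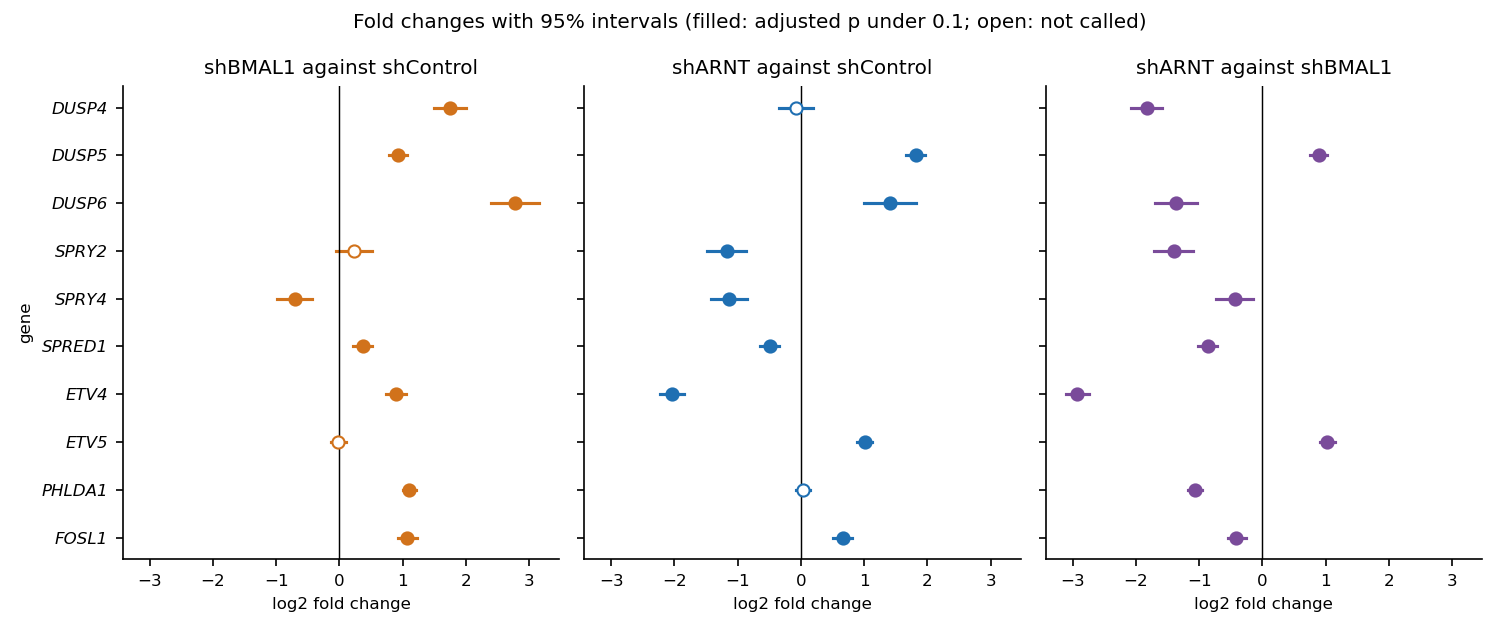
Log2 fold change (horizontal axis) with its 95% interval for the 10 genes in the 3 contrasts, filled where the adjusted p was under 0.1 and open otherwise. In shBMAL1 the values ran from -0.70 (SPRY4) to 2.78 (DUSP6), in shARNT from -2.04 (ETV4) to 1.82 (DUSP5), and in the direct contrast only DUSP5 and ETV5 lay above 0.

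Levels of different genes were compared per kilobase of exon. In shControl PHLDA1 (7.82 ± 0.128 CPM per kilobase) and FOSL1 (7.73 ± 0.196) were highest, with overlapping libraries. DUSP5 (5.73 ± 0.375) and ETV4 (5.12 ± 0.274) followed, again overlapping, then ETV5 (4.35), SPRED1 (2.75), SPRY2 (1.93), SPRY4 (0.976), DUSP4 (0.472) and DUSP6 (0.227), each below all libraries of the gene before. In shBMAL1 PHLDA1 (16.8) and FOSL1 (16.2) again led and overlapped, DUSP4 (1.59) and DUSP6 (1.56) overlapped, and SPRY4 (0.599) was last. In shARNT DUSP5 came first with 20.2 ± 1.38 CPM per kilobase, before FOSL1 (12.2), ETV5 (8.77) and PHLDA1 (8.03), and DUSP4 (0.448) and SPRY4 (0.444) overlapped at the bottom. DUSP6 was thus last of the 10 in shControl. With the longest transcript in place of all exons, FOSL1 (8.57) passed PHLDA1 and ETV4 (7.7) and ETV5 (6.16) passed DUSP5 in shControl. In shBMAL1 FOSL1 (18.0) likewise passed PHLDA1 (16.8) and ETV4 (14.3) passed DUSP5 (11.1), and the order in shARNT stayed as given.

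**Figure D4:**
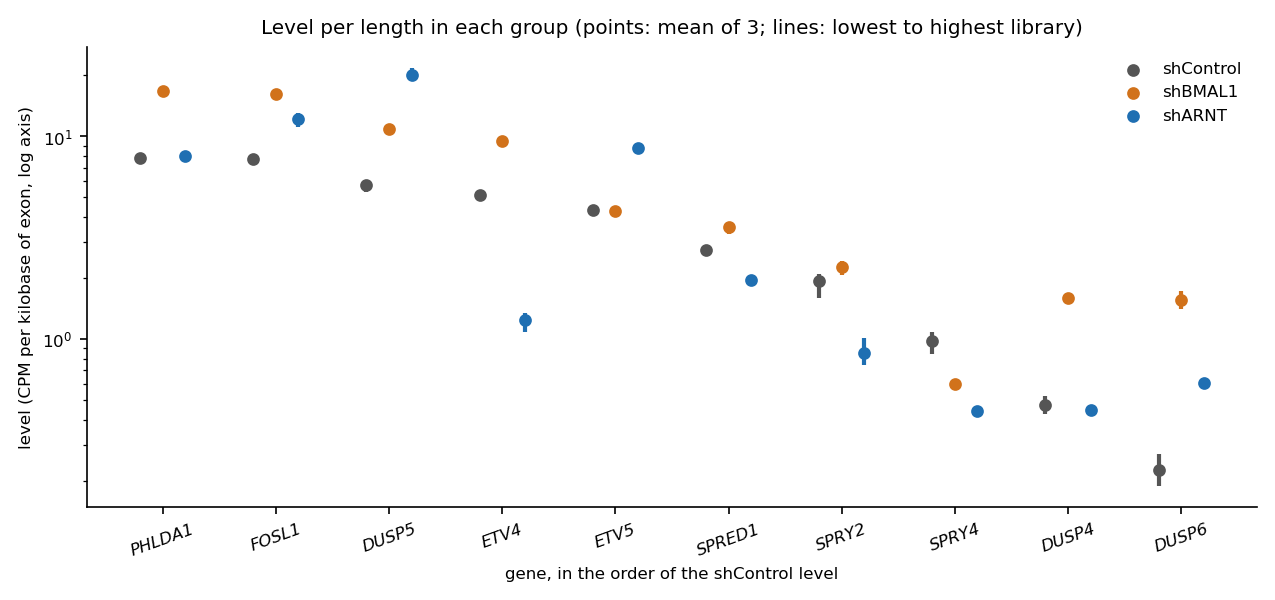
Level in CPM per kilobase of exon (vertical log axis) of the 10 genes, ordered by their shControl level, with points for the mean of 3 libraries and lines from the lowest to the highest library. ETV4 lay at 5.12 in shControl, 9.48 in shBMAL1 and 1.24 in shARNT, and DUSP6 lay at 0.227 in shControl, 1.56 in shBMAL1 and 0.604 in shARNT.

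The genes with the most similar pattern over the 9 libraries were sought for DUSP6, SPRY4 and ETV5 among 9745 tested genes, by the root mean square difference of log2 CPM after centring each gene. For DUSP6 they were RGS2 (0.194), HAS3 (0.304) and NOV (0.319). RGS2 had 2.88 CPM in shControl, 17.6 in shBMAL1 and 7.42 in shARNT. For SPRY4 they were AFF1 (0.0787), ADAMTS9 (0.0883) and LOC101927841 (0.0946), and for ETV5 they were BABAM1 (0.0361), DHX30 (0.0366) and GRB2 (0.0443). GRB2 encodes the adaptor that links receptors to the RAS activators SOS1 and SOS2, and its level was 33.5, 32.6 and 68.1 CPM in the order of groups above.

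Counts for the other pathway lists stand beside the shares of all genes, 31.9% higher and 31.5% lower in shBMAL1 and 40.5% higher and 41.3% lower in shARNT, and with 4 to 20 genes a list nothing particular to a list is read from them. Among the 7 other MAP kinase phosphatase genes, 2 rose, 2 fell and 3 did not pass the test in shBMAL1, and 4 rose and 3 fell in shARNT. DUSP10 and DUSP16, which act mainly on JNK and p38, rose in both depletions. Their log2 fold changes were 1.17 and 0.54 in shBMAL1 and 0.85 and 0.97 in shARNT. DUSP7 (-0.42 and -1.37) and DUSP9 (-0.47 and -1.52), cytoplasmic relatives of DUSP6 that act on ERK, fell in both. In shARNT DUSP2 (3.01) and DUSP8 (1.37) rose and DUSP1 (-1.56), an immediate early gene, fell, and in shBMAL1 their values were -0.13, -0.04 and 0.10, none called. DUSP2 was scarce, with 2 to 12 counts per shControl library, 1 to 9 in shBMAL1 and 46 to 65 in shARNT. It passed the filter on low counts through shARNT alone, so its call there supports nothing about the list.

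Of the 4 other Sprouty and SPRED genes, 3 were called in shBMAL1 (1 higher and 2 lower) and 4 in shARNT (1 higher and 3 lower), where 63.4% and 81.8% of all genes were. SPRY1 rose in both (1.54 in shBMAL1 and 0.38 in shARNT, as log2 fold changes) and SPRY3 fell in both (-2.06 and -1.06). SPRED2 had -0.22 and -0.18, and its shARNT value turned to 0.06 and lost its call with library size alone. SPRED3 fell in shARNT (-0.51), with 0.07 in shBMAL1. SPRY1 thus differed in direction from SPRY4 in each contrast with shControl. SPRY3 was held by 2 rows, which were summed. The sum was 38 to 63 counts per shControl library, 8 to 19 per shBMAL1 library and 28 to 36 per shARNT library.

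ETV1, the remaining PEA3 gene, rose in both depletions, by 1.02 (SE 0.101) in shBMAL1 and 1.31 (SE 0.099) in shARNT on the log2 scale. The repressor CIC and its partner ATXN1L fell in shBMAL1 and rose in shARNT, each with -0.19 in shBMAL1 and with 0.32 and 0.48 in shARNT, all called. ATXN1, a relative of ATXN1L, had 0.09 in shBMAL1, not called, and had -0.50 in shARNT, which was called. Among the 3 PEA3 genes, ETV1 and ETV5 were highest in shARNT, and ETV4 was highest in shBMAL1.

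Among 10 other transcripts used as ERK output, 5 rose and 4 fell in shBMAL1 (31.9% and 31.5% of all genes), and 3 rose and 7 fell in shARNT (40.5% and 41.3% of all genes). The Eph receptor genes EPHA2 and EPHA4 and HBEGF, which encodes a ligand of EGFR, rose in both. EPHA4 had log2 fold changes of 1.03 and 1.86, HBEGF (7 to 13 counts per shControl library, so that it passed the filter through the depleted groups) of 1.14 and 1.73, and EPHA2 of 0.47 and 2.18 (SE 0.046). EGR1, an immediate early transcription factor, fell in both, with -0.42 in shBMAL1 and -3.91 in shARNT (SE 0.218). It had 184 to 297 counts per shControl library, 184 to 198 in shBMAL1 and 15 to 26 in shARNT. The shBMAL1 libraries thus overlapped those of shControl, and the shARNT libraries lay below both groups. CCND1, which encodes cyclin D1, had -0.43 and -1.14. FOS rose in shBMAL1 (0.54) and fell in shARNT (-1.07), as did PLAUR, the urokinase receptor gene, with 0.24 and -1.32. IER3 had -0.15 in shBMAL1, a call that was lost with library size alone, and -1.07 in shARNT.

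Of 20 genes of the cascade itself, 8 rose, 6 fell and 6 did not pass the test in shBMAL1, and 11 rose and 9 fell in shARNT, beside 63.4% and 81.8% of all genes called. Receptor genes had the largest values. ERBB3 fell in both, by log2 values of -3.07 (shBMAL1) and -2.87 (shARNT). It had 1359 to 1452 counts per shControl library, 170 to 176 per shBMAL1 library and 193 to 256 per shARNT library. EGFR fell in shARNT (-2.01), with -0.02 in shBMAL1. MET, the receptor of hepatocyte growth factor, rose in both, by 1.23 in shBMAL1 and 0.34 in shARNT. ERBB2 had -0.82 in shBMAL1 and -0.22 in shARNT, and the latter turned to 0.02 with library size alone.

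Further down the cascade, NRAS (0.50) and the kinase gene BRAF (0.42) rose and MAP2K2 (-0.47), which encodes a kinase that activates ERK, fell in shBMAL1. In shARNT the scaffold gene KSR1 (1.51), GRB2 (1.02) and HRAS (0.93) rose, and MAPK3, which encodes ERK1, fell (-1.04). HRAS and NRAS therefore moved apart in shARNT, where NRAS fell (-0.95).

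**Figure D5:**
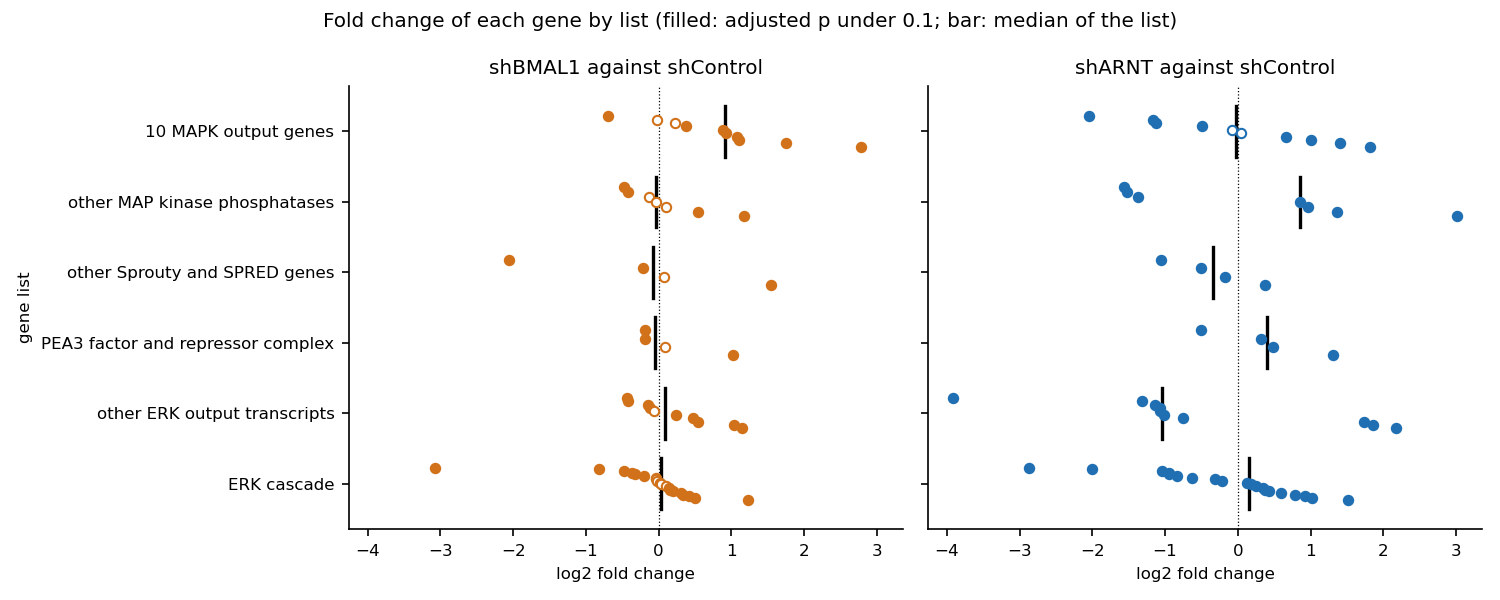
Log2 fold change (horizontal axis) of each gene in 6 lists, for shBMAL1 (left) and shARNT (right) against the same shControl libraries, filled where the adjusted p was under 0.1, with a bar at the median of the list. The 10 MAPK output genes had medians of 0.91 and -0.02, and the 10 other ERK output transcripts had 0.09 and -1.04.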

How the data were processed

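RNA of 9 A498 libraries was sequenced as paired-end reads from stranded mRNA libraries. Per the methods of the study, the authors used SeqMan NGen for alignment to GRCh37 and ArrayStar for the counts, whereas the submitters' processing notes name STAR, DESeq2 and hg38. The deposited values were expected counts per gene without normalization, and 0.05 stood for no reads and was set to 0. The authors' annotation release and their use of strand, read pairs and multiply aligned reads are not given in the sources used here. If both mates were counted, the counts are not independent reads.

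Rows of a shared name were summed (45 names) and counts were rounded. No column of a library was left unused. edgeR 4.0.16 in R 4.3.3 (TMM scaling, filterByExpr, glmQLFit, glmQLFTest) was fitted to all 9 libraries with group as the factor. The threshold for a call was an adjusted p (Benjamini-Hochberg over 15551 genes) under 0.1. CPM used TMM-scaled library sizes. The fit was tested on simulated counts in which few genes changed, in shBMAL1 alone. A broad response like the one in these data was not simulated. Positions and exon lengths came from GENCODE lifted to GRCh37, and promoter sequences came from RefSeq on GRCh38.p14. The alternatives covered scaling, DESeq2 1.42.0, the filter, rounding, halved counts, thresholds, left-out libraries and a replicate block.

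The 10 genes and the other lists were chosen with earlier results of these data known. Named were the 10 genes, BMAL1 and ARNT, every gene of lists of up to 5 genes, in longer lists the 3 highest and 3 lowest log2 fold changes in each contrast with shControl, and the 3 nearest genes of DUSP6, SPRY4 and ETV5 whose mean log2 CPM reached 3. Some genes of the lists are not reported here and were left out of the counts and sums.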

Additional observations from a re-analysis of the deposited data

Results flagged for a closer look

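All 10 genes responded differently to the depletions by the direct contrast of shARNT with shBMAL1, which uses no control library, in an experiment where 81.2% of all tested genes did. On the log2 scale, as shARNT minus shBMAL1, the difference was -2.93 for ETV4, -1.83 for DUSP4, -1.4 for SPRY2, -1.37 for DUSP6, -1.07 for PHLDA1, -0.86 for SPRED1, -0.43 for SPRY4 and -0.41 for FOSL1. It was 0.89 for DUSP5 and 1.03 for ETV5. For ETV4 and SPRED1 the depletions moved the level to opposite sides of shControl in 3 of 3 libraries each. The call of SPRY4 was lost with library size alone and, with that of FOSL1, under the minimum fold change of 1.5.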

How the results depend on the processing

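Of the alternatives run on the log2 fold changes of the 10 genes, 558 kept direction and call, 3 reversed, 2 gained a call and 7 lost one. Some alternatives could hardly change these values, because the 10 genes had whole-number counts and some left-out libraries lay outside the contrast. All 3 reversals concerned values that were not called: ETV5 in shBMAL1 became 0.03 with library size alone and 0.01 without shBMAL1 replicate 1 (from -0.05 to 0.01 over the left-out libraries), and DUSP4 in shARNT became 0.16 with library size alone. That scaling gained calls for SPRY2 in shBMAL1 and PHLDA1 in shARNT and lost the direct contrast of SPRY4 (-0.24). The test against a minimum fold change of 1.5 asks for more by construction. It called 2110 genes in place of 9852 in shBMAL1, 6966 in place of 12723 in shARNT and 6831 in place of 12630 in the direct contrast. Among the 10 genes it left 0 in place of 1 lower in shBMAL1. Among the genes of the pathway lists it left 5 in place of 17 higher and 3 in place of 16 lower in shBMAL1, 12 in place of 22 higher in shARNT, and 11 in place of 19 higher in the direct contrast. The calls it took from the 10 genes were SPRY4 and SPRED1 in shBMAL1, SPRED1 and FOSL1 in shARNT, and SPRY4 and FOSL1 in the direct contrast.

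Replicate numbers did not pair the libraries, since deviations of same-numbered libraries correlated from -0.205 to 0.182. With a replicate block, 9833, 12684 and 12591 genes were called in the 3 contrasts, and no call of the 10 genes changed. DUSP6 rests on 24 to 35 counts per shControl library, the lowest depth among the 10 genes, and its log2 fold change in shBMAL1 ran from 2.66 to 2.93 when libraries were left out in turn.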

Other observations

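Summed by role, the 10 genes gave a different picture for each branch. The DUSP4, DUSP5 and DUSP6 levels summed to 18.8 ± 0.825 CPM in shControl, 45.2 ± 1.77 in shBMAL1 and 56.7 ± 3.71 in shARNT. The sum of SPRY2, SPRY4 and SPRED1 was 33.9 ± 2.78, 38.8 ± 2.0 and 20.9 ± 0.547 CPM in the same order. PHLDA1 and FOSL1 together had 60.8 ± 0.482, 130 ± 5.8 and 70.6 ± 2.85 CPM. The total of all 10 genes was 157 ± 4.18, 272 ± 7.77 and 203 ± 7.55 CPM, and PHLDA1 was the largest contributor to it in shControl and shBMAL1. DUSP5 carried most of the phosphatase sum in every group (14.5, 27.6 and 51.1 CPM). DUSP4 and DUSP6 were higher in shBMAL1 than in shARNT, unlike that sum. SPRED1 carried most of the Sprouty and SPRED sum, whose mean was higher in shBMAL1 than in shControl although SPRY4 was lower there. These sums are descriptions without a test.

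Ratios within a library showed which genes kept their proportion. SPRY2 and SPRY4 had nearly equal counts in shControl (ratio 0.966 ± 0.0541, n = 3) and in shARNT (0.943 ± 0.153), where both fell, and a ratio of 1.85 ± 0.132 in shBMAL1. Counts are not corrected for gene length. Per kilobase of exon, SPRY2 lay above SPRY4 in shControl (1.93 against 0.976 CPM per kilobase) and in shARNT (0.854 against 0.444). The ratio of DUSP5 to DUSP6 was 17.1 ± 4.13 in shControl, 4.6 ± 0.325 in shBMAL1 and 21.9 ± 0.826 in shARNT, although both genes rose in each depletion. SPRED1 had 3.36 ± 0.284, 7.02 ± 0.245 and 5.23 ± 0.257 counts per count of SPRY4.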
